A study of Mus musculus with 6 samples.

Results

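A set of 10 genes that carry glucose into a cell and convert it to lactate was followed in mouse corticothalamic projection neurons, the layer 6 cells of the cerebral cortex whose axons run to the thalamus. The genes were the hexokinases Hk1 and Hk2, the phosphofructokinases Pfkl, Pfkm and Pfkp, the enolase Eno2, the lactate dehydrogenases Ldha and Ldhb, and the glucose transporters Slc2a1 and Slc2a3. Every microarray probe set that the platform annotation ties to exactly 1 gene symbol, and to one of these 10, was taken. That gave 23 of the 34945 probe sets with 1 symbol, and 10 of the 18193 genes they cover. Ldhb and Slc2a3 had 4 probe sets each, Pfkl, Pfkp and Slc2a1 had 3 each, Hk1 had 2, and Hk2, Pfkm, Eno2 and Ldha had 1 each. A further probe set that lists Hk1 beside other symbols was left out.

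All animals were wild-type C57BL/6 mice. Green fluorescent microspheres were injected into the thalamus, were carried back along the axons, and marked the cells that project there; the cortex was then dissociated and the marked cells were purified by fluorescence-activated sorting. The 3 stages were E18 (injected at E17.5, collected at E18.5), P3 (injected at P1) and P6 (injected at P4), with 2 arrays each. Labelling therefore lasted 1 day for E18 and 2 days for P3 and P6, and this difference cannot be told apart from the stage. The sources used here do not say if replicate arrays had separate mice or sorts behind them, so every p-value below measures the spread between arrays, which may be technical.

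Glycolysis splits glucose into pyruvate in the cytosol, and many of its steps can be carried out by more than 1 isozyme, each from its own gene. Hexokinase traps glucose by phosphorylating it: Hk1 is the form typical of brain, and Hk2 that of muscle, growing and dividing cells. Phosphofructokinase makes the first committed step, as tetramers of liver (Pfkl), muscle (Pfkm) and platelet (Pfkp) type subunits that can mix. Eno2 is the gamma, neuron-type enolase, long used as a marker of mature neurons. Lactate dehydrogenase interconverts pyruvate and lactate as tetramers of A (Ldha) and B (Ldhb) subunits. Slc2a1 (GLUT1) carries glucose across the blood-brain barrier endothelium and into glia, and Slc2a3 (GLUT3) is the high-affinity carrier of neurons.

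The sequences upstream of the transcription starts are shown for both isozymes of hexokinase and of lactate dehydrogenase, and for Slc2a1. These are examples from steps whose partners took different courses. The phosphofructokinases did so too, and their windows were searched but are not shown. Each line holds the 250 bases before an annotated start (RefSeq, build GRCm38.p6), read 5′ to 3′ on the strand of the gene, with ACGTG on either strand in capitals. ACGTG is the core letters of the hypoxia response element and part of the E-box CACGTG. The windows are chr10:62379909-62380158 on the minus strand (Hk1, the outer of its 2 starts), chr6:82774455-82774704 on the minus strand (Hk2), chr7:46845554-46845803 on the plus strand (Ldha, the outer of its 2 starts), chr6:142507958-142508207 on the minus strand (Ldhb) and chr4:119108495-119108744 on the plus strand (Slc2a1).
Hk1: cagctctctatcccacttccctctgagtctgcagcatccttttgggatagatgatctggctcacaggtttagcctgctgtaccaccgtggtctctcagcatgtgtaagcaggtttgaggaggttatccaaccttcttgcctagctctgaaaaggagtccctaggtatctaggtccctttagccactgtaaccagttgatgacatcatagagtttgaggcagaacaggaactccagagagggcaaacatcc
Hk2: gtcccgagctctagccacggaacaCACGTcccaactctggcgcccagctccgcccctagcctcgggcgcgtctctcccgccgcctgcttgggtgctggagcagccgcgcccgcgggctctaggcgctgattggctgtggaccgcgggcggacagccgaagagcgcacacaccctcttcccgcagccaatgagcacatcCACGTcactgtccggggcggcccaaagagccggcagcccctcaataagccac
Ldha: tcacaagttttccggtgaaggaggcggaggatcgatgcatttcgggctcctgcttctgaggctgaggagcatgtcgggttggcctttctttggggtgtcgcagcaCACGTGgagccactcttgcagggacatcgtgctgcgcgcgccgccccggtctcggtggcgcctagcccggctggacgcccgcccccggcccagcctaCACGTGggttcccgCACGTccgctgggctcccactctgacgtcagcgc
Ldhb: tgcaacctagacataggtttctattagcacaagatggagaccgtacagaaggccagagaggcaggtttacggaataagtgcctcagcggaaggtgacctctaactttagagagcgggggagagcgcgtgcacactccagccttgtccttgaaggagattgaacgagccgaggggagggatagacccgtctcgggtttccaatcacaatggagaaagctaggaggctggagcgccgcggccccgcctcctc
Slc2a1: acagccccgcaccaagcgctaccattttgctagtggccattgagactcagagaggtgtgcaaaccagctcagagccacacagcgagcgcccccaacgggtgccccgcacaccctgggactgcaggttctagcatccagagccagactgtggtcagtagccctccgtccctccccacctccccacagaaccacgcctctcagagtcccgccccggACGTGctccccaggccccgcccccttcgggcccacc
Hk2 holds ACGTG 226 and 52 bases before its start, and Slc2a1 holds it 36 bases before. The Ldha window holds 5 matches, 4 of which come from 2 copies of the palindrome CACGTG, counted on both strands. Those of Hk1 and Ldhb hold none, and neither does the window of the inner Ldha start, not shown. Windows were available for 9 of the 10 genes, 14 in all, with none for Slc2a3, which therefore could not be searched. Of the 14, 5 held ACGTG, in Hk2, Pfkm, Ldha and Slc2a1, against 16.6% of the 32851 mouse windows of this length. The windows of Pfkl, which fell at P3, and of Pfkp, which rose, held none. CACGTG occurred in 2 of the 14 and in 6.02% of all windows, GGGCGG in 4 of the 14 and in 32.7%, and TATAAA in 1 (Eno2) and in 12.4%, each searched on both strands. A match describes letters, not a bound site.

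The deposited values are log2 signals. The median signal of an array lay between 6.41 and 6.53, and the lower quartile between 5.15 and 5.40. The 2 arrays of a stage had a Pearson correlation over all probe sets of 0.998 at E18, 0.961 at P3 and 0.976 at P6. No probe set lay more than 2-fold apart between the E18 arrays, against 3664 at P3 and 1710 at P6, so the E18 arrays were closer to each other than those of any other stage, and fits with them averaged and counted as 1 are given beside the results. Markers of the labelled cell type were higher after birth. Of 11 corticothalamic markers, 10 rose at P3 over E18, where 12.1% of all genes did. The mean level of the 11 was 8.32 and 8.41 at E18, 10.55 and 10.04 at P3, then 10.72 and 10.59 at P6. The E18 arrays also carried high signals of dividing progenitors, which sorted projection neurons should lack: 13 such markers averaged 11.39 and 11.40 at E18, 6.32 and 6.55 at P3, then 6.45 and 6.57 at P6.

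Changes were estimated with limma in 1 fit of all 6 arrays over the 34945 probe sets, with Benjamini-Hochberg adjustment over them all, and a change was called at an adjusted p below 0.05. A gene with several probe sets is represented by the one with the highest mean. All changes and errors (SE, n = 2 arrays per stage) are on the log2 scale. In tissue or sorted populations fewer cells of a type and less RNA per cell cannot be told apart.

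From E18 to P3 the glycolytic set split into opposite courses. Eno2, Pfkp and Hk1 rose, and Hk2, Slc2a1, Pfkl and Ldhb fell, each of these 4 by 3.79-fold to 4.9-fold. Ldha, Pfkm and Slc2a3 did not pass the test. The 7 of 10 members called compare with 30.4% of all 18193 genes (12.1% higher and 18.3% lower). At the level of probe sets 16 of 23 were called, 6 higher and 10 lower, against 28.6% of all (11.5% higher and 17.1% lower). The median change over the 10 members was -0.01, against 0.09 over all genes. With the E18 arrays counted as 1, 6 of these 7 were called (all but Hk1, limma adjusted p = 0.256), against 9.22% of all genes. With both E18 arrays kept, leaving out the first P3 array gave 7 members called, against 49.4% of all genes, and leaving out the second P3 array gave 8, against 26.4%.

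At P6 relative to E18, a comparison that shares its E18 arrays with the one above, 7 of 10 were called, against 22.5% of all genes. Hk1, Pfkp, Eno2 and Slc2a3 rose (10.2% of all genes did), and Hk2, Ldhb and Slc2a1 fell (12.3% did). In probe sets 14 of 23 were called, 6 higher and 8 lower, against 21.1% of all (8.76% higher and 12.4% lower). The median change was 0.54, against 0.13 over all genes. With the E18 arrays counted as 1, Hk2, Pfkp, Eno2, Slc2a1 and Slc2a3 were called, 5 of 10, against 9.44% of all genes, while Hk1 (limma adjusted p = 0.0584) and Ldhb (0.119) were not.

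**Figure D1:**
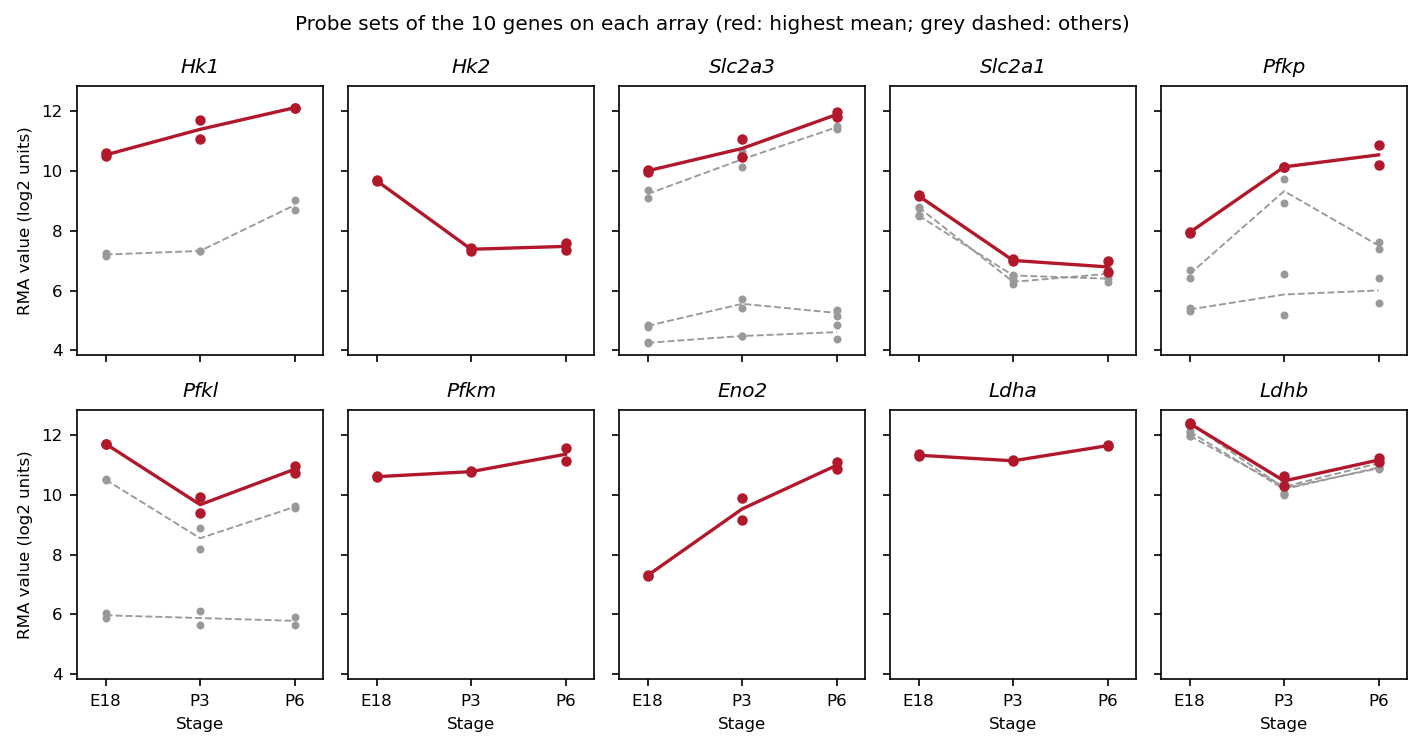
Log2 signal (vertical axis) of every probe set of the 10 genes at E18, P3 and P6, 1 panel per gene; dots are single arrays, lines join stage means, red marks the probe set with the highest mean and grey dashed lines the others. Slc2a1 and Hk2 step down after E18 and stay low, Eno2 climbs across the 3 stages, and the red lines of Pfkl and Ldhb are lowest at P3.

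The signals of the glucose carriers moved apart. Slc2a1 (probe set 1434773_a_at) read 9.15 and 9.19 at E18, 7.04 and 6.98 at P3, then 6.61 and 6.98 at P6. Both E18 arrays stood above all 4 later ones. The gene fell 4.47-fold at P3 relative to E18 (-2.16 ± 0.22, limma adjusted p = 0.000859) and 5.2-fold at P6 relative to E18 (-2.38 ± 0.22, limma adjusted p = 0.000569). Its other probe sets, 1426599_a_at and 1426600_at, fell 5.65-fold and 4.02-fold at P3, and 4.69-fold and 4.32-fold at P6, all called by limma.

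Slc2a3, the neuronal carrier, went the other way. Its brightest probe set, 1437052_s_at, read 9.97 and 10.04 at E18, 11.06 and 10.45 at P3, then 11.82 and 11.96 at P6. The 3 stages did not overlap. Its level at P6 was 3.69-fold that at E18 (1.88 ± 0.26, limma adjusted p = 0.00304), while the change at P3 of 0.75 ± 0.26 missed the threshold (limma adjusted p = 0.0718). Quantile normalization of the arrays put the P3 change past it (1.16, limma adjusted p = 0.0026), and so did leaving out the second P3 array (1.05, limma adjusted p = 0.0102).

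The probe sets of Slc2a3 differed in their course. A second one, 1455898_x_at, read 9.37 and 9.10 at E18, 10.66 and 10.13 at P3, then 11.52 and 11.42 at P6, and was called at both later stages (1.16 ± 0.26, limma adjusted p = 0.0197, and 2.23 ± 0.26, limma adjusted p = 0.00147). Both of these carry a suffix that Affymetrix gives to probe sets that can match more than 1 transcript. The other pair, 1421924_at and 1427770_a_at, lay below the array median on all 6 arrays. Of them, 1421924_at read 4.78 and 4.86 at E18, 5.40 and 5.71 at P3, then 5.14 and 5.36 at P6, called at P3 (0.74 ± 0.17, limma adjusted p = 0.0195) but not at P6 (0.43, limma adjusted p = 0.118). The rise of Slc2a3 at P6 therefore rests on the 2 probe sets with that suffix.

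At the first step of glycolysis the hexokinases parted. Hk2 (1422612_at), its 1 probe set, read 9.67 and 9.69 at E18, 7.33 and 7.44 at P3, then 7.35 and 7.61 at P6. The E18 arrays stood apart from the other 4, and the later stages overlapped. Hk2 fell 4.9-fold at P3 relative to E18 (-2.29 ± 0.22, limma adjusted p = 0.000632) and 4.59-fold at P6 (-2.20 ± 0.22, limma adjusted p = 0.000737).

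Hk1 was highest at P6. Its brighter probe set, 1437974_a_at, read 10.49 and 10.59 at E18, 11.71 and 11.08 at P3, then 12.12 and 12.12 at P6, with no overlap between stages. The change at P3 was 0.86 ± 0.26 (1.81-fold, limma adjusted p = 0.049), at the threshold, and that at P6 relative to E18 was 1.58 ± 0.26 (2.99-fold, limma adjusted p = 0.00607). The dimmer probe set, 1420901_a_at, read 7.16 and 7.25 at E18, 7.34 and 7.32 at P3, then 8.70 and 9.02 at P6. Here the P3 change was 0.12 ± 0.22 (limma adjusted p = 0.68) and the P6 change 1.66 ± 0.22 (3.15-fold, limma adjusted p = 0.00245). At P3 the call of Hk1 thus rests on the brighter probe set, and it was lost in 9 of the alternative fits.

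Phosphofructokinase had 3 courses for 3 subunits. Pfkp (1416069_at) read 7.91 and 7.98 at E18, 10.14 and 10.14 at P3, then 10.87 and 10.22 at P6. Its 4 postnatal arrays all stood above both E18 arrays. It rose 4.58-fold at P3 relative to E18 (2.19 ± 0.28, limma adjusted p = 0.00211) and 6.05-fold at P6 (2.60 ± 0.28, limma adjusted p = 0.00099).

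A second Pfkp probe set was highest at P3. This one, 1437759_at, read 6.42 and 6.68 at E18, 8.92 and 9.73 at P3, then 7.38 and 7.63 at P6, with no overlap between stages. Its P3 change over E18 was 2.78 ± 0.31 (6.86-fold, limma adjusted p = 0.00132), and that of P6 over E18 was 0.95 ± 0.31 (limma adjusted p = 0.0768). The second interval differed from the first by -4.60 ± 0.54 (limma adjusted p = 0.00479), the only member probe set called negative in that test. The dimmest, 1430634_a_at, read 5.31 and 5.43 at E18, 5.18 and 6.56 at P3, then 6.42 and 5.59 at P6, and was not called; its P3 arrays lay 1.38 apart, the only member probe set more than 2-fold apart there. With the 3 probe sets averaged, Pfkp rose by 1.40 at P6 relative to E18.

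Pfkl, the liver-type subunit, was lowest at P3. Its brightest probe set, 1439148_a_at, read 11.69 and 11.71 at E18, 9.93 and 9.40 at P3, then 10.74 and 10.97 at P6, with no overlap between stages. It fell 4.1-fold at P3 relative to E18 (-2.04 ± 0.26, limma adjusted p = 0.00206). At P6 it stood 1.8-fold below E18 (-0.85 ± 0.26), which missed the threshold (limma adjusted p = 0.0589). The probe set 1450269_a_at gave the same course, with 10.48 and 10.53 at E18, 8.90 and 8.19 at P3, then 9.62 and 9.57 at P6, and a 3.9-fold fall at P3 (limma adjusted p = 0.00389). The third, 1453541_at, lay below the array median on all 6 arrays, read 5.65 to 6.10, and was not called.

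Pfkm, the muscle-type subunit, had the smallest changes of the 3. It (1416780_at) read 10.59 and 10.62 at E18, 10.77 and 10.78 at P3, then 11.13 and 11.58 at P6. The stages did not overlap, but neither 0.17 ± 0.23 at P3 (limma adjusted p = 0.582) nor 0.75 ± 0.23 at P6 (1.68-fold, limma adjusted p = 0.0643) passed the test; the P6 change was called in 8 of the alternative fits.

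Eno2, the neuron-type enolase, had the largest change of the 10 genes at P6 relative to E18. Its 1 probe set, 1418829_a_at, read 7.28 and 7.32 at E18, 9.88 and 9.17 at P3, then 10.86 and 11.11 at P6. Each stage stood above the one before without overlap. Eno2 rose 4.68-fold at P3 relative to E18 (2.23 ± 0.30, limma adjusted p = 0.00263) and 12.9-fold at P6 (3.69 ± 0.30, limma adjusted p = 0.00032). Eno1, the widely expressed enolase, had no probe set with 1 symbol and was not analysed here.

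At the last step Ldhb fell while Ldha did not pass the test. Ldhb (1448237_x_at) read 12.37 and 12.40 at E18, 10.64 and 10.28 at P3, then 11.10 and 11.22 at P6. Its stages did not overlap, with E18 highest and P3 lowest. Relative to E18 it fell 3.79-fold at P3 (-1.92 ± 0.22, limma adjusted p = 0.00135) and 2.33-fold at P6 (-1.22 ± 0.22, limma adjusted p = 0.00838). All 4 Ldhb probe sets were called lower at both stages; the other 3 (1416183_a_at, 1434499_a_at and 1455235_x_at) had changes of -2.17, -1.70 and -1.92 at P3 and of -1.51, -0.92 and -1.20 at P6.

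Ldha (1419737_a_at) read 11.28 and 11.36 at E18, 11.15 and 11.12 at P3, then 11.62 and 11.66 at P6. The 6 values spanned the narrowest range among the 10 genes, with P6 highest and P3 lowest. Its change was -0.19 ± 0.19 at P3 (limma adjusted p = 0.467), which turned to 0.15 under quantile normalization, and 0.32 ± 0.19 at P6 (limma adjusted p = 0.281).

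**Figure D2:**
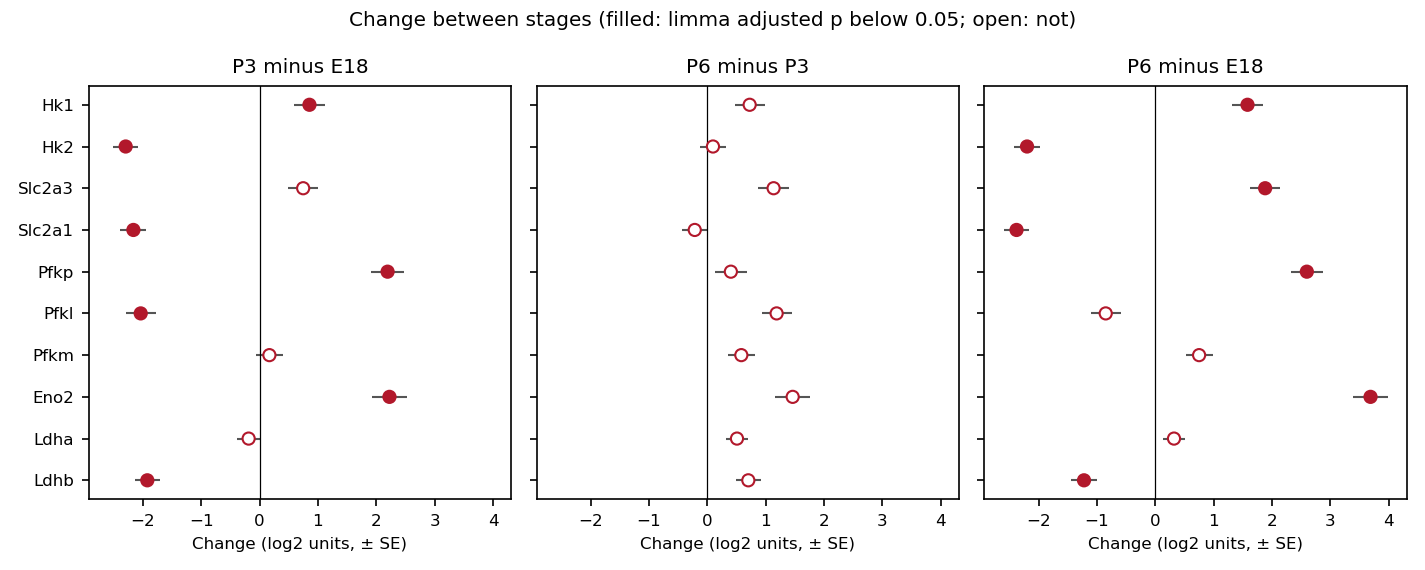
Change in log2 signal ± SE (horizontal axis) of the 10 genes for P3 minus E18, P6 minus P3 and P6 minus E18, from limma on all 6 arrays; filled points have an adjusted p below 0.05. At P3 minus E18 there are 3 filled points above 0 and 4 below, at P6 minus P3 none, and at P6 minus E18 there are 4 above and 3 below.

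From P3 to P6 no member was called, as 0% of all 18193 genes were; the smallest limma adjusted p of any member was 0.186 and of any gene 0.185. At an unadjusted limma p below 0.05 there were 7 of the 10 members, and 2927 of all genes (16.1%). Of the 10 changes 9 were positive, all but that of Slc2a1 (-0.22 ± 0.22), and the median was 0.64, against 0.07 over all genes. Eno2 had the largest value (1.46 ± 0.30, 2.75-fold), then Pfkl (1.19 ± 0.26), Slc2a3 (1.13 ± 0.26), Hk1 (0.72 ± 0.26) and Ldhb (0.70 ± 0.22). This contrast turned on 1 array: without the first P3 array limma called Hk1 (1.04), Pfkl (1.45), Eno2 (1.82), Ldhb (0.88) and Slc2a3 (1.44), 5 of 10, against 19.2% of all genes, and without the second P3 array it called 0 of 10.

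The test of whether the second interval differed from the first called 4 members, all positive: Pfkl (3.22 ± 0.44, limma adjusted p = 0.00782), Hk2, Ldhb and Slc2a1. Among all genes 12.9% were called, 9.77% positive and 3.11% negative. In probe sets 11 of 23 were called, 10 positive and 1 negative, against 12.1% of all (8.87% positive and 3.26% negative). Pfkl, Hk2, Ldhb and Slc2a1 had all fallen by P3 and did not go on falling at that rate. Of all calls in this test 75.9% were positive, and 58.6% under quantile normalization, where 6 members were called, against 14.2% of all genes. With the E18 arrays counted as 1 only Pfkl was called, against 3.18% of all genes, and with the hybridization controls as a covariate no member was, against 4.06%. A change at any stage was called for 8 of the 10 members (all but Pfkm and Ldha), against 25.7% of genes, and for 18 of the 23 probe sets, against 24.1% of probe sets. With the E18 arrays counted as 1 it was called for 4, Hk2, Pfkp, Eno2 and Slc2a1, against 7.77% of genes.

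Isozymes of 1 step were then set against each other within each array, as the difference of their log2 signals. Since probe sets differ in brightness, a ratio says nothing about which isozyme was more abundant, and its change between stages is what can be read. There were 7 such pairs. With 2 arrays at each of 3 stages an exact permutation F test has 15 partitions and cannot give a p below 0.0667, so no pair could reach 0.05; adjusted over the 7 pairs the smallest value was 0.0933.

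The carrier ratio shifted toward Slc2a3. Slc2a3 over Slc2a1 was 0.82 and 0.86 at E18, 4.02 and 3.48 at P3, then 5.21 and 4.99 at P6. The stages did not overlap (exact permutation p = 0.0667), and the change was 2.91 ± 0.24 at P3 over E18 (7.51-fold), 1.35 at P6 over P3 and 4.26 at P6 over E18 (19.2-fold). Of the P3 change, the fall of Slc2a1 made up 2.16 and the rise of Slc2a3, not called, 0.75. Of the P6 change over E18 the parts were 2.38 and 1.88. With probe sets whose names do not end in _s_at or _x_at, Slc2a3 was read from 1421924_at, below the array median on all 6 arrays. The ratio in that setting was -4.38 and -4.33 at E18, -1.64 and -1.26 at P3, then -1.47 and -1.62 at P6. The postnatal stages then overlapped: the change was 2.81 at P6 over E18, and that at P6 over P3 was -0.09. With the mean of all probe sets the changes were 3.47 at P6 over E18 and 0.52 at P6 over P3.

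The hexokinase ratio shifted toward Hk1. Hk1 over Hk2 was 0.82 and 0.90 at E18, 4.39 and 3.64 at P3, then 4.77 and 4.52 at P6. The stages did not overlap, with a change of 3.15 ± 0.32 at P3 over E18 (8.87-fold) and 3.78 at P6 over E18 (13.7-fold, exact permutation p = 0.0667). Of the P3 change, the fall of Hk2 made up 2.29 and the rise of Hk1 0.86.

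The phosphofructokinase ratios shifted away from Pfkl. Pfkp over Pfkl was -3.78 and -3.74 at E18, 0.21 and 0.74 at P3, then 0.13 and -0.75 at P6. Its change was 4.23 ± 0.42 at P3 over E18 (18.8-fold, exact permutation p = 0.0667) and 3.45 at P6 over E18, or 2.05 with the mean of all probe sets of each gene. Pfkm over Pfkl was -1.10 and -1.09 at E18, 0.83 and 1.38 at P3, then 0.39 and 0.61 at P6, a change of 2.21 ± 0.24 at P3 (4.61-fold, exact permutation p = 0.0667). For both ratios all postnatal arrays stood above the E18 ones. Pfkm over Pfkp was 2.67 and 2.64 at E18, 0.63 and 0.64 at P3, then 0.26 and 1.36 at P6, a change of -2.03 ± 0.45 at P3 (exact permutation p = 0.2) and of -1.85 at P6, which shrank to -0.65 with the mean of all probe sets.

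The lactate dehydrogenase ratio shifted toward Ldha. Ldhb over Ldha was 1.09 and 1.03 at E18, -0.51 and -0.84 at P3, then -0.52 and -0.44 at P6. The postnatal arrays lay below both E18 arrays and overlapped among themselves. The change was -1.74 ± 0.14 at P3 over E18 (3.33-fold) and -1.54 at P6 over E18 (2.91-fold, exact permutation p = 0.133).

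Aldolase, outside the 10 genes, was run as a further pair of isozymes. Aldoc over Aldoa was 2.40 and 2.29 at E18, -3.62 and -2.81 at P3, then -2.09 and -1.95 at P6. At P3 the ratio was 47.2-fold below that at E18 (-5.56 ± 0.34, exact permutation p = 0.0667), the largest shift of the 7 pairs at P3. The change was -3.66 with the mean of all probe sets. Every Aldoa probe set carried the suffix _x_at.

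**Figure D3:**
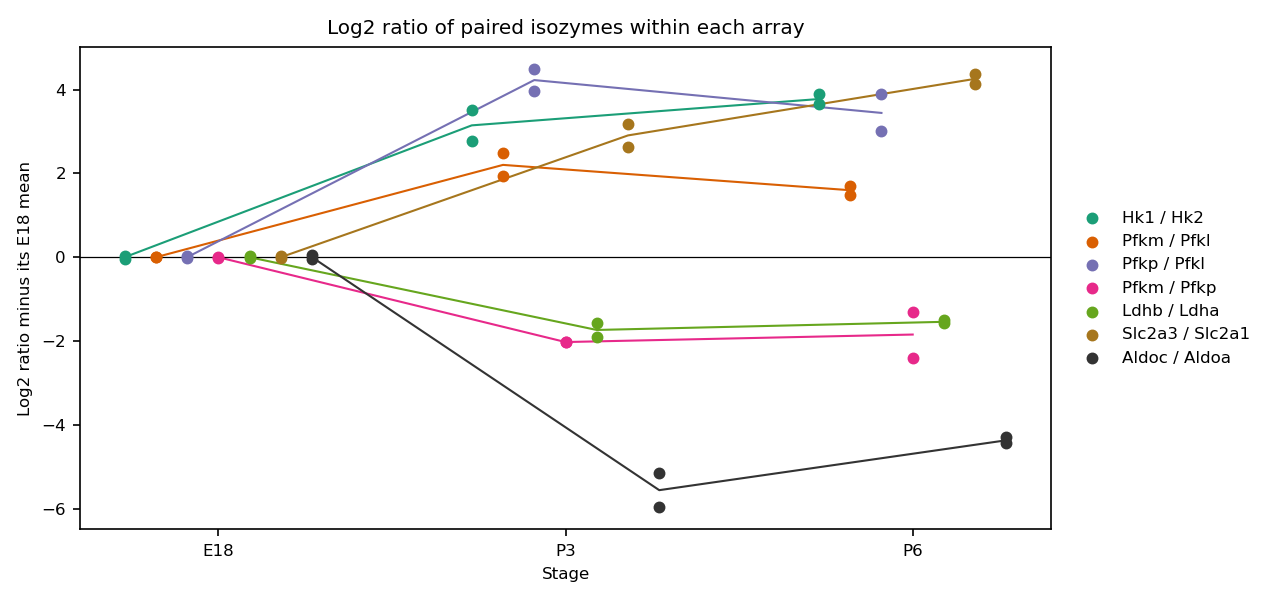
Log2 ratio of 7 pairs of isozymes or carriers on each of the 6 arrays, minus the mean of the E18 arrays (vertical axis); dots are arrays. The Slc2a3 over Slc2a1, Hk1 over Hk2, Pfkp over Pfkl and Pfkm over Pfkl ratios lie above 0 on all 4 postnatal arrays, and the Ldhb over Ldha, Pfkm over Pfkp and Aldoc over Aldoa ratios below 0.

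Genes of the same pathway that are not members were read from lists of their own. Of 12 measured other glycolytic enzymes, 5 fell at P3 relative to E18 and none rose, with a median of -0.36 against 0.09 over all genes. Among all genes 18.3% fell and 12.1% rose. Aldoc, the brain aldolase found mainly in astrocytes, had 2 probe sets. The brighter read 13.16 and 13.11 at E18, 6.72 and 7.64 at P3, then 8.78 and 9.83 at P6. It fell 62-fold at P3 (limma adjusted p = 0.00022) and 14.2-fold at P6. The dimmer fell 4.47-fold at P3 and 5.24-fold at P6, both called by limma. Its postnatal signals lay below the lower quartile, where a fold is imprecise. From P3 to P6 the brighter changed by 2.13 and the dimmer by -0.23, neither called. Pkm, the pyruvate kinase of brain and muscle, fell 4.01-fold at P3 (limma adjusted p = 0.00614), and the triose phosphate isomerase Tpi1 fell 2.81-fold (limma adjusted p = 0.0186). Eno3, the muscle enolase, and the phosphoglycerate mutase Pgam1 also fell, by 0.79 and by 1.14 on the log2 scale. At P6 relative to E18, 1 of the 12 was called higher (Pgam2, 0.85, a muscle mutase named after its value was seen) and 1 lower (Aldoc). There 10.2% of all genes were called higher and 12.3% lower.

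Other carriers of glucose and lactate were read next. Of 9 other glucose transporters 2 were called at P3, a share below the 30.4% of all genes: Slc2a12 rose (0.74) and Slc2a10 fell (-1.22). At P6 3 were called, where 22.5% of all genes were: Slc2a6 rose (1.73, limma adjusted p = 0.0201) while Slc2a10 (-1.05) and Slc2a4, the insulin-responsive carrier, fell (-1.04, limma adjusted p = 0.0267). Among 7 genes of lactate and pyruvate transport 1 was called, a share below the 30.4% of all genes at P3 and the 22.5% at P6. That gene was Slc16a7 (MCT2), the monocarboxylate carrier of neurons. It read 5.69 and 5.82 at E18, 8.07 and 9.36 at P3, then 9.02 and 7.56 at P6, with a 7.79-fold rise at P3 (2.96 ± 0.57, limma adjusted p = 0.0109) and a 5.8-fold rise at P6 (limma adjusted p = 0.0204). All 4 postnatal arrays stood well above E18, though arrays of 1 stage differed by more than 1 on the log2 scale.

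Of 15 regulators of glycolysis and pyruvate oxidation, 1 rose and 2 fell at P3, and 1 rose and 2 fell at P6. The share called was below that of all genes at both stages (30.4% at P3 and 22.5% at P6). Pdk4, a kinase that switches off pyruvate dehydrogenase, fell 3.96-fold at P3 and 4.72-fold at P6 relative to E18, and its signal lay below the lower quartile on all postnatal arrays, where a fold is imprecise. Dlat, the acetyltransferase of that complex, rose 1.97-fold at P3 and 2.45-fold at P6 (limma adjusted p = 0.0161), and Pdhx, its binding subunit, fell 3.04-fold at P3. Hif1a, the oxygen-regulated transcription factor, fell 1.78-fold at P6 (limma adjusted p = 0.0463).

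Of 6 measured pentose phosphate genes 3 fell at P3 (Tkt by 0.94, Rpe by 1.45 and Pgls by 1.49 on the log2 scale), and 1 at P6 (Rpe). Among all genes 18.3% fell at P3, and 12.3% fell and 10.2% rose at P6. Of 9 glycogen genes 5 fell at P3, which included the brain glycogen phosphorylase Pygb (5.23-fold, limma adjusted p = 0.000672), the branching enzyme Gbe1 (3.4-fold, with postnatal signals below the lower quartile), Pgm1 and Pygl; the fifth, Gys1, a glycogen synthase named after its value was seen, fell by 0.84 on the log2 scale. At P6, 3 fell and 1, the muscle phosphorylase Pygm, rose by 0.64. No gene of any of these lists was called from P3 to P6.

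Markers of other cells moved in the same interval as the members. Among all genes 18.3% fell and 12.1% rose at P3 relative to E18, and 12.3% fell and 10.2% rose at P6. Of the 13 progenitor markers 11 fell at P3 and 11 at P6, both relative to E18, with medians of -6.12 and -5.90; Pbk, Cdk1, Vim and Eomes fell 105-fold, 77.3-fold, 69.9-fold and 46.2-fold at P3. Of 12 astrocyte markers 7 fell at P3 and 7 at P6, and the list averaged 9.59 and 9.63 at E18, 7.14 and 7.32 at P3, then 7.56 and 8.30 at P6. Of 11 microglia markers 6 fell at P3 and none was called at P6, and their mean was 8.80 and 8.79 at E18, 6.36 and 7.11 at P3, then 6.91 and 8.46 at P6. Both lists had their lowest stage mean at P3, but so did the progenitor, endothelial and oligodendrocyte lists. Among the members Pfkl, Ldhb, Ldha and, narrowly, Hk2 were lowest there, and a link to any list was not tested. Of 9 interneuron markers 4 fell at P3 (Slc32a1, Dlx1, Dlx2 and Lhx6) and 1 rose (Npy, 1.51, named after its value was seen).

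Endothelial cells carry much of the Slc2a1 of brain. Of 14 endothelial markers 3 fell at P3 and none rose, and the share that fell was near the 18.3% of all genes. The list mean was 6.59 and 6.57 at E18, 6.01 and 5.98 at P3, then 6.11 and 5.96 at P6, while the median change over the list was -0.02 at P3. Pecam1 and Flt1 had changes of 0.15 and 0.01, named after their values were seen. Cldn5 and Vwf fell 3.46-fold and 2.4-fold at P3, and Tek, Cdh5 and Abcb1a lay below the lower quartile on all 6 arrays, as Vwf did on the postnatal ones. Slco1c1, a thyroid hormone carrier of endothelium that astroglia also express, fell 43.5-fold, with 11.36 and 11.46 at E18, 5.99 and 5.95 at P3, then 6.01 and 6.57 at P6. Of 5 red blood cell markers 1 rose at P3 (Epb42, 0.73), against 12.1% of all genes. Olig1 and Olig2, 2 of 7 oligodendrocyte markers, fell, against 18.3% of all genes. The part of any of these cells in the changes of the 10 members was not tested.

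**Figure D4:**
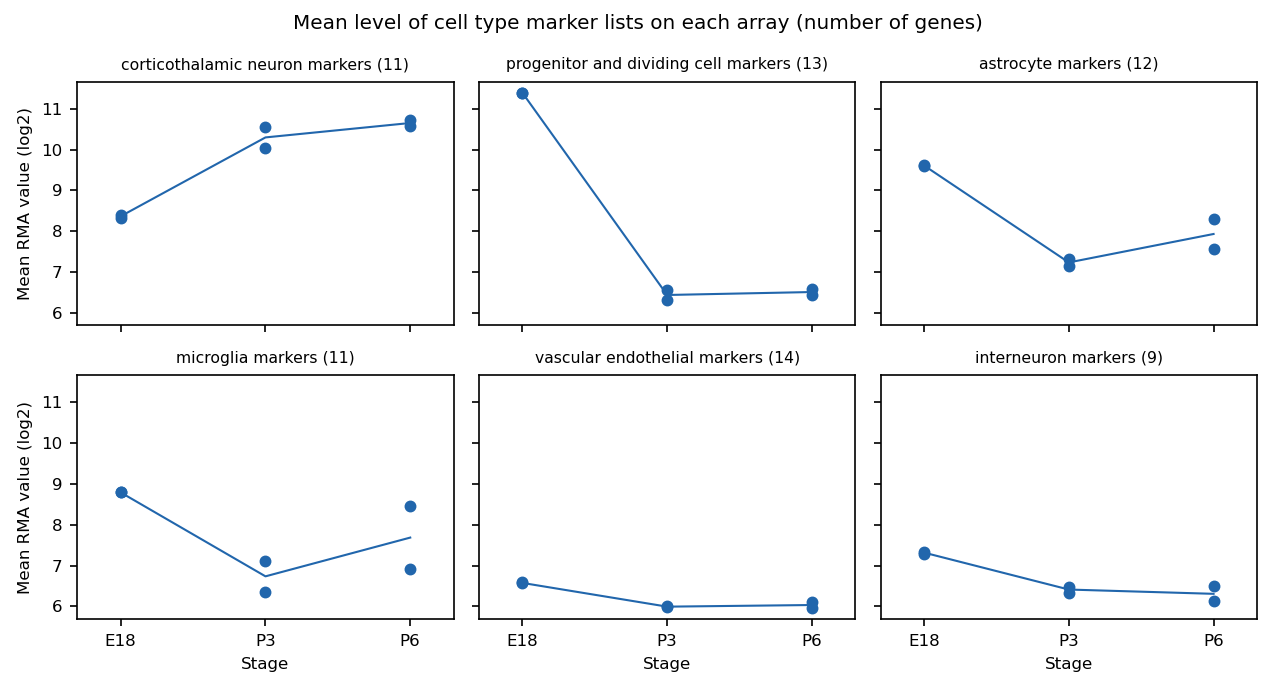
Mean log2 signal (vertical axis) of 6 lists of cell type markers on each of the 6 arrays; dots are arrays grouped by stage. The corticothalamic list stands higher on all 4 postnatal arrays than at E18, and the progenitor list lower, at 6.32 to 6.57 against 11.39 and 11.40.

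Technical readings also differed between arrays. The 3′ minus 5′ signal of the Actb control probe sets, which grows as RNA or its copies shorten, was 0.56 and 0.58 at E18, 1.19 and 1.76 at P3, then 1.06 and 0.82 at P6. The same difference of the Gapdh controls came to 1.48 and 1.44 at E18, 2.55 and 1.68 at P3, then 2.08 and 1.79 at P6. Both were higher on all 4 postnatal arrays than at E18. The hybridization controls, spiked in before hybridization, read 9.59 and 9.25 at E18, 11.72 and 11.59 at P3, then 13.01 and 9.85 at P6. For 18S ribosomal RNA the readings were 11.32 and 11.36 at E18, 11.83 and 14.22 at P3, then 13.92 and 11.33 at P6. With the hybridization controls as a covariate Hk2, Pfkl, Pfkp, Eno2, Ldhb and Slc2a1 were still called at P3 over E18, with limma adjusted p between 0.0158 and 0.0465, against 10.1% of all genes, and with the 18S level 8 members were, against 23.7%. At P6 over E18 the hybridization covariate left 5 members called, without Hk1 and Ldhb, against 11.6% of all genes, and the 18S level 8, against 24.4%. The part of these readings in the results was not tested beyond those fits.

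For each member the 2 genes with the nearest profile over the 6 arrays were found among 13643 genes, as the smallest Euclidean distance after centring each gene on its mean. The nearest was Lrp11 for Hk1, Sorl1 for Hk2, Unc119 for Pfkl, Fam171a1 for Pfkm and Celf4 for Pfkp. For Eno2 it was Garnl3, for Ldha Stau1, for Ldhb Ppp6r3, for Slc2a1 Gabpa and for Slc2a3 Atp9a. The second nearest were Kcnt1, Oaf, Cxxc1, Fam163a and Omg for Hk1, Hk2, Pfkl, Pfkm and Pfkp, and Sstr4, Jmjd8, Exosc5, Mybl2 and Svop for Eno2, Ldha, Ldhb, Slc2a1 and Slc2a3. The nearest distances ran between 0.0741 (Stau1 to Ldha) and 0.277 (Garnl3 to Eno2) log2 units. The same 6 arrays give every profile, so a near one describes 6 values and carries no test.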

How the data were processed

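RNA from sorted corticothalamic neurons was amplified, biotin-labelled and hybridized to Affymetrix arrays, 2 arrays at each of 3 stages, per the labels' protocols. The deposited values are log2 signals per probe set, made with RMA per the submitters' processing notes (its version is not given in the sources used here). Of 45101 probe sets, 34945 had 1 gene symbol in the platform annotation, 932 several, 9160 none, and 64 were controls; 34741 Entrez identifiers were found in the reference table, and no symbol needed an update.

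All 34945 probe sets entered 1 limma fit (3.58.1, R 4.3.3; stage means, intensity trend, 3 residual degrees of freedom), with no filter on low values. Isozyme ratios are differences of log2 values within an array, tested with a two-sided exact permutation F test; of 8 planned pairs 7 were run, as Eno1 had no probe set with 1 symbol. The small number of arrays limits the precision. All members and all their probe sets are named, as are both genes of each pair, up to 5 genes with the smallest F-test p per pathway list and up to 4 per marker list, and the 2 nearest genes by profile. The members, lists and tests were chosen with earlier results of these data known, so no pattern here is independent support. The main fit did not pair arrays by the replicate numbers in the labels. The deviations of same-numbered arrays from their stage means correlated at -0.17 between E18 and P3, 0.05 between E18 and P6, and -0.24 between P3 and P6. With 2 arrays per stage this cannot show whether same-numbered arrays shared a litter, sort or batch. The alternatives were quantile normalization, limma without a trend or with array weights, other rules for probe sets and dim signals, technical covariates, a replicate block, the E18 arrays averaged, only the stages compared, and each array left out. The fits were tested on simulated data.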

Additional observations from a re-analysis of the deposited data

How the results depend on the processing

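At P3 minus E18 between 6 and 8 members were called in every alternative fit, and Hk2, Pfkl, Pfkp, Eno2, Ldhb and Slc2a1 in each of them; at P6 minus E18 the count was 5 to 9, with Hk2, Pfkp, Eno2 and Slc2a1 in each. Leaving out 1 array at a time gave 6 to 8 calls at P3 minus E18, 5 to 9 at P6 minus E18, 0 to 5 at P6 minus P3 (5 without the first P3 array), 1 to 5 for the second interval minus the first and 4 to 10 for any stage. Over the same fits the share of all genes called moved widely too, at 9.12% to 49.4%, 9.37% to 33.5%, 0% to 19.2%, 3.12% to 38.5% and 7.62% to 51.7%. With the E18 arrays averaged 1 member was called for the second interval minus the first and 4 for any stage; with the hybridization controls as a covariate these were 0 and 4. Of all genes the fit with that covariate called 4.06% and 8.55%. The replicate block, for numbers whose pairing across stages is not known, called 6 members at P3 minus E18 and 0 at P6 minus P3. It called 7 at P6 minus E18, 4 for the second interval and 8 for any stage. The shares of all genes were 24.3%, 0%, 19.5%, 9.15% and 21.2%. With the numbers crossed at P3, a fit chosen after seeing the data, the counts were 7, 0, 7, 5 and 8. Of all genes that fit called 34.9%, 0%, 24.8%, 17.9% and 31.6%. Over all genes the count at P3 minus E18 was 5535 in the fit reported, 1678 with the E18 arrays averaged and 8993 without the first P3 array. Single genes that changed sign, none of them called, were Ldha at P3 minus E18 (0.15, quantile normalization), Hk2 at P6 minus P3 (-0.032 to 0.22 with 1 array left out, negative without the second P6 array), Pfkp at P6 minus P3 (-0.43, mean of all probe sets) and Slc2a3 at P6 minus P3 (-0.31, probe sets without the suffix _s_at or _x_at); the cause was not tested. Of the isozyme ratio values, 204 under the alternatives kept their sign and 3 did not, all at P6 minus P3: Slc2a3 over Slc2a1 (-0.091, probe sets without the suffix), Aldoc over Aldoa (-0.024, mean of all probe sets) and Pfkm over Pfkp (-0.37 without the second P6 array, within a range of -0.37 to 0.73 with 1 array left out). With 2 arrays per stage, and dim probe sets near the lower quartile, small changes could not be told from the spread.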
